A study of Mus musculus with 3 samples.

Results

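The stretch of mouse chromosome 3 described here holds the S100 genes and the epidermal differentiation complex, and it carried 25 of the 15011 c-FOS peaks in the deposited list. Its members are the peaks whose midpoint lies between positions 90200001 and 94000000 of the mm9 build, a stretch of 3.8 Mb. The stretch was set by 8 genes placed in it to the nearest 0.1 Mb: S100a6, S100a8, S100a9, Sprr1a, Ivl, Flg, S100a10 and S100a11. Peak values played no part in drawing its borders. A peak is an interval that the authors' peak caller listed as enriched in c-FOS reads.

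The peaks come from chromatin immunoprecipitation with sequencing (ChIP-seq) on ASZ001, an established mouse basal cell carcinoma line. There were 2 samples with an antibody against c-FOS and 1 input sample with none. All 3 samples had the genotype RasV12_TGFbR1kd, meaning an activated Ras together with an shRNA that targets the receptor TGFbR1, were given Dox and 4OHT, and were taken 6 days after induction. There was no uninduced arm, all cells were of 1 line, and both c-FOS samples enter 1 list that carries positions and no peak strength. Read depth is unknown, no value below has a replicate error, and with 1 list no test over samples was possible. A gene without a listed peak is therefore not shown to be free of c-FOS.

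c-FOS is a subunit of AP-1, a transcription factor formed from a FOS and a JUN protein that binds the palindrome-like sequence TGAGTCA, which reads TGACTCA on the other strand. The epidermal differentiation complex is a cluster of genes for the proteins that build the cornified envelope, the tough shell of a keratinocyte at the end of its life: involucrin, loricrin, the small proline-rich (Sprr) and late cornified envelope (Lce) proteins, and the filaggrin family. The small calcium-binding S100 proteins are encoded on both sides of it. Several of them, S100a8 and S100a9 above all, are known from injured and inflamed skin, and keratinising squamous carcinomas are known for expressing both S100 and envelope genes.

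The sequences upstream of the genes are shown first, because they hold the motif that AP-1 recognises. Each line gives the 250 bases before the annotated start site, 5′ to 3′ on the gene's strand, from RefSeq on GRCm38.p6. Capitals mark each match to TGANTCA, which was searched on both strands and reads as TGANTCA on either. TGACTCA and TGAGTCA are its core forms. Positions of these sequences are on GRCm38.p6 and cannot be set against the mm9 positions of the peaks. S100a6, whose surroundings held the widest peak, is shown for contrast.
Sprr1a, chr3:92485882-92486131, minus strand: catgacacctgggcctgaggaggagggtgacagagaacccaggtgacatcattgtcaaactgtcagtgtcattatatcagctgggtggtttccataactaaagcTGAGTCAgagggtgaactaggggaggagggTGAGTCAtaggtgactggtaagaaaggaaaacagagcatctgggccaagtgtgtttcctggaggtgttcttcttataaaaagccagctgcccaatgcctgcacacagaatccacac
Ivl, chr3:92573736-92573985, minus strand: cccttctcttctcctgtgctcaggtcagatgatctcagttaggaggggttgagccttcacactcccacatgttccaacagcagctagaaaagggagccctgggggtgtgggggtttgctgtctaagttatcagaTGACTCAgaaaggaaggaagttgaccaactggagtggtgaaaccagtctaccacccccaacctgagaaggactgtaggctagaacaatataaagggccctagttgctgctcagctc
Flg, chr3:93273296-93273545, plus strand: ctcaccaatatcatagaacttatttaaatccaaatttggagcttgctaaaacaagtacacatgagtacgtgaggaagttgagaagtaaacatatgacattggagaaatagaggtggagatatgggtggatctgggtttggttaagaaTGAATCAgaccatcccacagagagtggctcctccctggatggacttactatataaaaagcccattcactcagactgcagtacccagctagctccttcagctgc
S100a11, chr3:93520246-93520495, plus strand: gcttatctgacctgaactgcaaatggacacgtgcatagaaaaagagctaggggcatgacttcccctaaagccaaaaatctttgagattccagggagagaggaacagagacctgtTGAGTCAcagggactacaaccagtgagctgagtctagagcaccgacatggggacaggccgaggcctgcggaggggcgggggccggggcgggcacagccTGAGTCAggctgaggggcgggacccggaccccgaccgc
S100a6, chr3:90612644-90612893, plus strand: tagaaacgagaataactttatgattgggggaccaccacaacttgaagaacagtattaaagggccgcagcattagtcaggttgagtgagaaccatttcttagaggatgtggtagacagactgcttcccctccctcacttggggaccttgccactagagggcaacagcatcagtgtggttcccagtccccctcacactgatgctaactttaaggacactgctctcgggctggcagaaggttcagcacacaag

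A core match was found upstream of 3 of the 7 members that had a sequence, against 5.16% of the 27025 genes with any promoter in the RefSeq table. Sprr1a, which encodes a small proline-rich envelope protein, and S100a11, an S100 protein of keratinocytes, each held 2 core matches. The matches of Sprr1a began 146 and 116 bases before the start site, and those of S100a11 began 136 and 38 bases before it. Ivl, the gene for involucrin, held 1 core match, beginning 116 bases before the start. Flg, the gene for filaggrin, held only the form TGAATCA, beginning 103 bases before the start. No match lay in these windows of S100a6, S100a8 or S100a9, and S100a10 is named only. A match describes letters and is not a bound site.

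**Figure D1:**
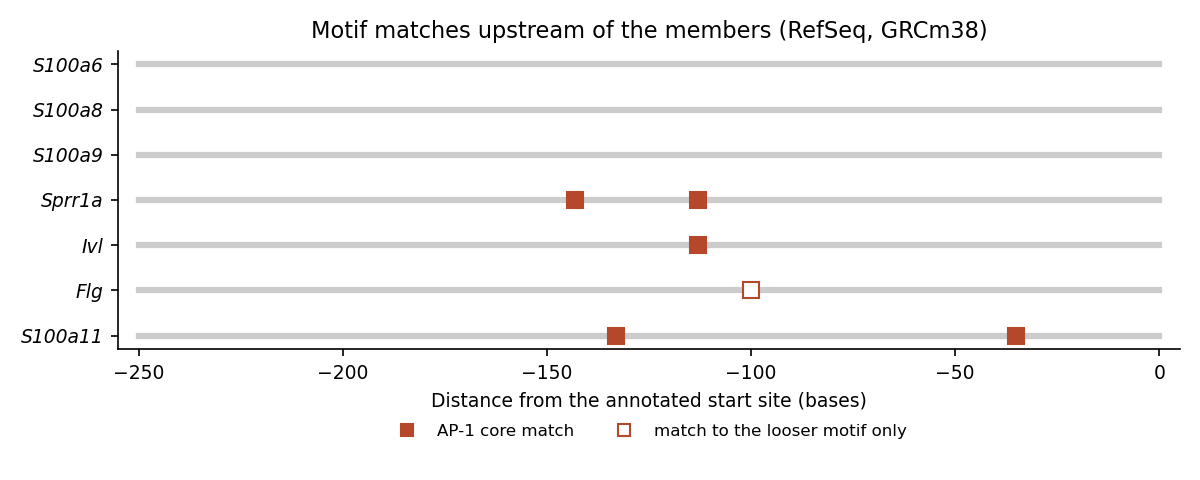
Matches to TGANTCA in the 250 bases before the annotated start site of the 7 members with a RefSeq sequence; the horizontal axis is the distance from the start site in bases. Filled squares are TGACTCA or TGAGTCA and the open square is the looser form. Sprr1a and S100a11 have 2 filled squares each, Ivl has 1, Flg has the open one, and S100a6, S100a8 and S100a9 have none.

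The other genes of the complex were counted by family, with no test between families. Of the 14 small proline-rich genes, 8 held a core match: Sprr1a, Sprr2b, Sprr2d, Sprr2e, Sprr2f, Sprr2h, Sprr2i and Sprr2k. The Sprr2 genes are near copies of each other, so they do not count as independent, and the same caution holds for the other families. None of the 20 late cornified envelope genes with a sequence, out of 21 named, held TGANTCA in any form. Among the 7 filaggrin-type genes (Flg, Flg2, Hrnr, Rptn, Crnn, Tchh and Tchhl1), 5 held TGANTCA but 0 a core form. Over all genes with a promoter, TGANTCA was found in 7.82% and a core form in 5.16%. Of the 5 other envelope genes with a sequence, Ivl, Lor (loricrin) and Prr9 held a core match. In the S100 family, 2 of 12 genes with a sequence did, S100a11 and S100a7l2.

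Turning to binding, most listed c-FOS peaks of the stretch lay near the stated S100 positions at its ends. The 6 bins of 0.1 Mb that lie within 0.1 Mb of a stated S100 position all held a peak, 16 peaks in 0.6 Mb or 26.7 per Mb. The 5 such bins around Sprr1a, Ivl and Flg held 2 peaks in 0.5 Mb, or 4.00 per Mb, and both lay in 1 bin. The rest of chromosome 3 had 4.17 peaks per Mb, so the density around these envelope genes was near that of the chromosome. In the 3.8 Mb just before and just after the stretch it was 17.6 and 19.5 per Mb. The value around the S100 genes, which rests on 6 bins, lay above both. That around the envelope genes, which rests on 2 peaks, lay below both. The values beside the stretch are averages over 38 bins each, empty ones included, and single bins there held up to 10 and 6 peaks. Whether the S100 windows differ from their surroundings was not tested. For comparison, 22.6% of the 1595 bins of chromosome 3 held a peak, and 25.4% of the 26378 bins of chromosomes 1 to 19 and X. In the 3.8 Mb before and after the stretch the share was higher, 60.5% and 76.3%, and neighbouring bins are not independent. The gene positions were stated to 0.1 Mb and were not checked against an mm9 annotation, so no peak is assigned to a promoter, exon or intron here.

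Of the 38 bins of 0.1 Mb, 12 held a peak (31.6%, Wilson 95% interval 19.1 to 47.5%) and 26 held none. Intervals of this kind cover counting error only and treat neighbouring bins as independent. The bin from 93300001 to 93400000, at the positions stated for S100a10 and S100a11, held the most, with 6 peaks. Bins with at least 6 peaks made up 1.61% of those on chromosomes 1 to 19 and X. Here the share was 2.63% (1 of 38, 0.466 to 13.5%). Next came the bin from 90300001 to 90400000, just before the position of S100a6, with 4 peaks. At least 4 were held by 5.26% of bins here and 4.17% on chromosomes 1 to 19 and X. At least 3 were held by 5.26% here (1.46 to 17.3%) and 7.04% there. On chromosome 3 the shares with at least 3, 4 and 6 peaks were 4.7%, 2.19% and 0.69%, all below those of the stretch. The direction for at least 3 thus depends on the background. The intervals of the stretch are wide, so full bins were not shown to be more frequent in it. A further 5 bins held 2 peaks each, starting at 90200001, 90400001, 92300001, 93200001 and 93600001. Another 5 held 1 peak each, starting at 90500001, 91800001, 91900001, 92900001 and 93400001.

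The empty bins formed 6 runs. The longest run had 12 bins, from 90600001 to 91800000, after the position of S100a8 and S100a9. There were 5 empty bins from 92400001 to 92900000, after the position of Ivl, and 3 from 92000001 to 92300000, before that of Sprr1a. The 2 bins around Flg, from 93000001 to 93200000, were empty. A single empty bin lay from 93500001 to 93600000, and the last 3 bins of the stretch, from 93700001 to 94000000, were empty too.

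**Figure D2:**
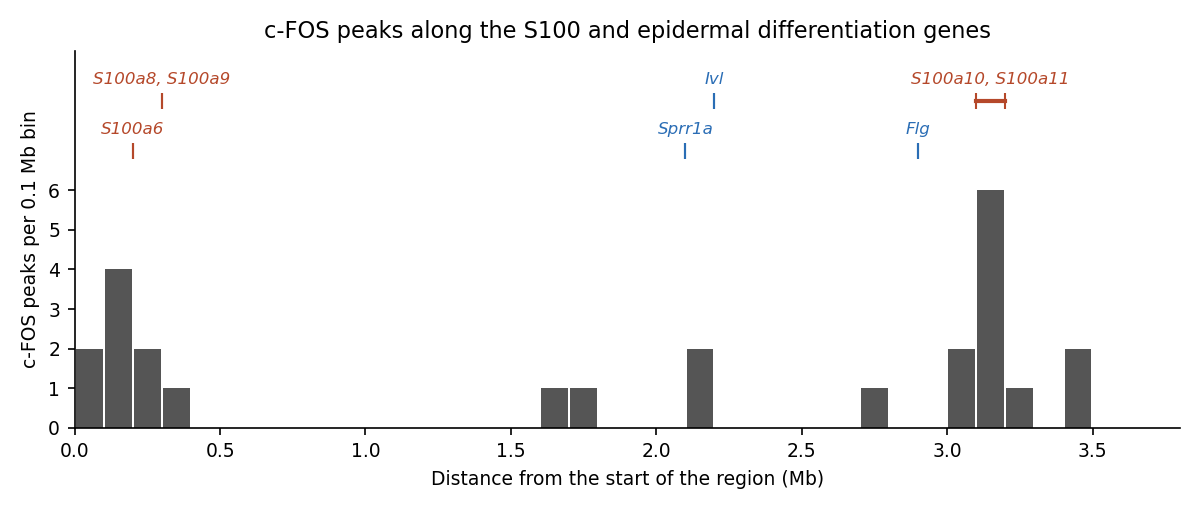
Number of c-FOS peaks (vertical axis) in each of the 38 bins of 0.1 Mb, against distance from the start of the region in Mb (horizontal axis); ticks above mark the stated gene positions, S100 genes in red and envelope genes in blue. The tallest bars, 6 and 4 peaks, stand at the S100 genes, 2 peaks stand between Sprr1a and Ivl, and no bar stands at Flg.

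S100a6 encodes calcyclin, an S100 protein common in dividing epithelial cells and fibroblasts. Within 0.1 Mb of its stated position there were 6 peaks, between 90312930 and 90417680, with a summed width of 1234 bp. The count followed the window, since the position is stated only to 0.1 Mb: with 0.05 Mb on either side it was 3, and with 0.2 Mb it was 9. The widest peak of the whole stretch was among them, at 90416730 to 90417224, and measured 495 bp. In the whole list 277 peaks, or 1.85%, were wider than this one, which was picked as the widest of 25. A second peak of 159 bp, at 90417522 to 90417680, followed it after a gap of 297 bp. Before the stated position lay a peak of 204 bp at 90390908 to 90391111 and one of 133 bp at 90341949 to 90342081. A close pair lay further out, at 90312930 to 90313027 (98 bp) and 90313341 to 90313485 (145 bp), separated by 313 bp. Outside this window, the first 2 peaks of the stretch were 125 bp at 90279787 to 90279911 and 169 bp at 90294863 to 90295031. In the RefSeq table, 8 further S100 genes stand in an unbroken row before S100a6: S100a1, S100a13, S100a14, S100a16, S100a3, S100a2, S100a4 and S100a5. Which of these peaks belong nearest to which S100 gene was not resolved.

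S100a8 and S100a9 encode the 2 subunits of calprotectin, an alarm protein of neutrophils and of stressed keratinocytes. Their window, from 90400001 to 90600000, held 3 peaks, and 2 of these were the wide peak and its partner already counted beside S100a6. The third, at 90514153 to 90514250, measured 98 bp. That is the smallest width in the list, shared by 1613 peaks. It stood alone, 96.5 kb after its neighbour on one side, and was the last peak before the longest empty stretch. With 0.05 Mb on either side of the stated position it was the only peak left. Only S100a7a stands between S100a6 and S100a8 in the gene table, and no gene stands between S100a8 and S100a9.

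Between S100a9 and Sprr1a the RefSeq table names 20 protein-coding genes. They include loricrin (Lor), the main protein of the cornified envelope, 12 small proline-rich genes, the antibacterial proteins Pglyrp3 and Pglyrp4, and the S100 gene S100a7l2. Between the 2 stated positions, over 1.8 Mb, 3 peaks were listed, or 1.67 per Mb. One is the peak of 98 bp beside S100a9, and the others measured 132 bp at 91838650 to 91838781 and 125 bp at 91973919 to 91974043. These last 2 peaks were both narrower than the median of the list, 158 bp. The stretch of 1.32 Mb from 90514251 to 91838649 held no peak. Gaps at least this long made up 3.71% of the 674 gaps on chromosome 3 and 2.44% of those on chromosomes 1 to 19 and X, so such a gap is not rare in the list. A second empty stretch of 410 kb (91974044 to 92383543) preceded the peaks between the stated positions of Sprr1a and Ivl.

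Sprr1a and Ivl are neighbours in the complex, with Sprr4 alone between them, and shared the same 2 peaks. These lay at 92383544 to 92383752 (209 bp) and 92398056 to 92398270 (215 bp), 14.3 kb apart. Both were wider than the median of the list. Both fell between the stated position of Sprr1a and that of Ivl, and with 0.05 Mb on either side they stayed with Ivl while the window of Sprr1a was empty. The windows of 0.2 Mb around these genes therefore hold 1 small group of peaks and are not separate results. For comparison, 33.6% of the 797 bins of 0.2 Mb on chromosome 3 held at least 1 peak.

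After this group came an empty stretch of 551 kb, from 92398271 to 92948791, the second longest of the region. Between Ivl and Flg the table names 28 genes, 21 of them late cornified envelope genes. Over the 0.7 Mb between both stated positions 1 peak was listed, at 92948792 to 92948967, with a width of 176 bp. Flg encodes the precursor of filaggrin, which bundles keratin filaments in the outer epidermis. No peak was listed within 0.1 Mb of its stated position. The nearest peaks were the one ending at 92948967 and the one starting at 93248398, and the empty stretch between them measured 299 kb. In the gene table Flg is followed by Hrnr, Rptn, Tchh and Tchhl1, further filaggrin-type genes, and then by S100a11. With 0.2 Mb on either side, the Flg window took in 3 peaks, the lone one before it and the first 2 of the group described next.

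S100a10 and S100a11 stand at the other end of the complex. S100a10 encodes p11, the partner of annexin A2, and S100a11 a calcium sensor that also binds annexins. The window from 93200001 to 93500000 held 9 peaks with a summed width of 1650 bp, all within 153 kb (93248398 to 93401619). Per length of window this was 30.0 per Mb, the same as in the window of S100a6. With 0.05 Mb on either side 8 of the 9 peaks were left, and with 0.2 Mb the count was again 9. The widest were 2 peaks of 266 bp, at 93341067 to 93341332 and 93383289 to 93383554. A close pair lay between them, at 93360029 to 93360182 (154 bp) and 93360657 to 93360852 (196 bp), with a gap of 474 bp. Before these stood a peak of 195 bp at 93310982 to 93311176 and one of 145 bp at 93324871 to 93325015. The group opened with peaks of 98 bp at 93248398 to 93248495 and 198 bp at 93251334 to 93251531, and ended with one of 132 bp at 93401488 to 93401619. The median width in this group was 195 bp, whereas the 9 peaks of the group at the other end of the stretch had a median of 145 bp. The first group nevertheless held the widest single peak. No gene stands between S100a11 and S100a10 in the table.

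Beyond S100a10 the next gene named is Tdpoz2. After an empty stretch of 216 kb, the last 2 peaks of the stretch measured 214 bp (93617324 to 93617537) and 159 bp (93674674 to 93674832). No peak followed for the 325 kb up to the border. The nearest peaks outside the stretch were 102 kb before its start and 114 kb after its end, so moving either border outward by 0.1 Mb added no peak.

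Both groups of 9 together held 18 of the 25 peaks (72.0%) in 388 kb, or 10.2% of the length. The groups were cut from these same peaks at their long gaps and measured between their outermost peaks. The cut was chosen after the peaks were seen. A large share in a small length therefore follows from how the groups were drawn, and is not evidence of clustering. No other stretch cut in the same way is given for comparison. In these groups no gap between neighbours exceeded 96.5 kb, and the cut itself excluded only gaps over 0.2 Mb. The peaks within 0.1 Mb of any stated gene position also numbered 18, since the first 2 peaks of the first group lie outside the S100a6 window and the Sprr1a and Ivl pair lies inside theirs. That made 16.4 peaks per Mb near the 8 genes and 2.59 per Mb in the other 2.7 Mb. The first value joins 26.7 per Mb around the S100 genes with 4.00 around Sprr1a, Ivl and Flg. The 3.8 Mb before and after the stretch had 17.6 and 19.5 per Mb. The windows near the genes were fixed on the genes' positions with earlier results on this list known, and these densities are given as a description.

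**Figure D3:**
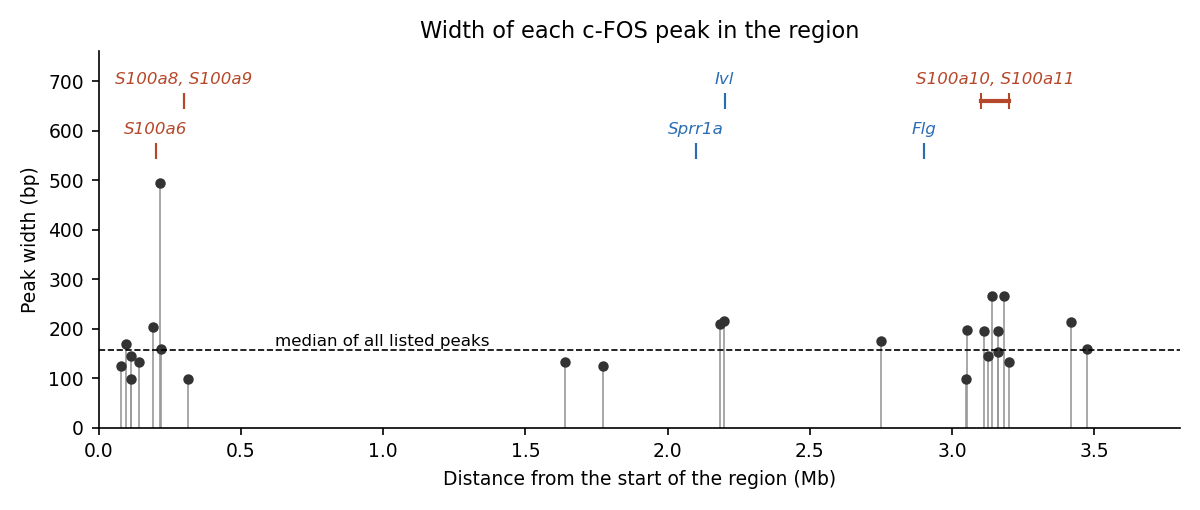
Width of each of the 25 c-FOS peaks in bp (vertical axis) against distance from the start of the region in Mb (horizontal axis); each point is 1 peak, the dashed line is the median of all 15011 peaks, 158 bp, and ticks above mark the stated gene positions. The widest peak, 495 bp, stands beside S100a6. Both peaks between Sprr1a and Ivl, nearer to Ivl, lie above the line.

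The widths of the members lay close to those of the whole list. Their median was 159 bp (quartiles 132 and 204 bp) against 158 bp (119 and 225 bp) over all 15011 peaks. Of the members, 14 were wider than the list's median (56.0%, Wilson 95% interval 37.1 to 73.3%) and 3 had the smallest width of 98 bp (12.0%, 4.17 to 30.0%), where 10.7% of all peaks had it. A neighbour within 1 kb was found for 6 members (24.0%, 11.5 to 43.4%), the 3 close pairs given above, beside 24.9% in the list. Within 10 kb the share was 32.0% (17.2 to 51.6%) in the region and 48.7% in the list. With 25 peaks these intervals are wide, and differences of this size were not resolved.

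The stretch as a whole was not poor in peaks for its chromosome, but it was sparser than the sequence on either side. Its 25 peaks were 3.70% of the 675 on chromosome 3, on 2.38% of the length, and gave 6.58 per Mb. The rest of chromosome 3 had 4.17 per Mb, so the ratio was 1.58 (Wilson 95% interval of the share of peaks, turned into a ratio, 1.06 to 2.35). That interval treats peaks as independent although they cluster, so it is likely too narrow. Over chromosomes 1 to 19 and X the density was 5.69 per Mb, which brings the ratio to 1.16. The 3.8 Mb just before the stretch held 67 peaks (17.6 per Mb) and the 3.8 Mb just after it 74 peaks (19.5 per Mb). The share of bins with a peak was 60.5% before and 76.3% after, against 31.6% inside. The fullest single bin held 10 peaks before the stretch and 6 after it, and the fullest inside also held 6. Between the stated positions the density was uneven. It was 1.67 per Mb from S100a9 to Sprr1a (3 peaks in 1.8 Mb), 20 per Mb from Sprr1a to Ivl (2 peaks in 0.1 Mb), 1.43 per Mb from Ivl to Flg (1 peak in 0.7 Mb) and 10 per Mb from Flg to the nearer position of the S100a10 and S100a11 pair (2 peaks in 0.2 Mb). The lower values were below that of the rest of the chromosome and the higher ones above it. Copy number, mappability and gene density were not measured here, and their part in these differences was not tested.

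**Figure D4:**
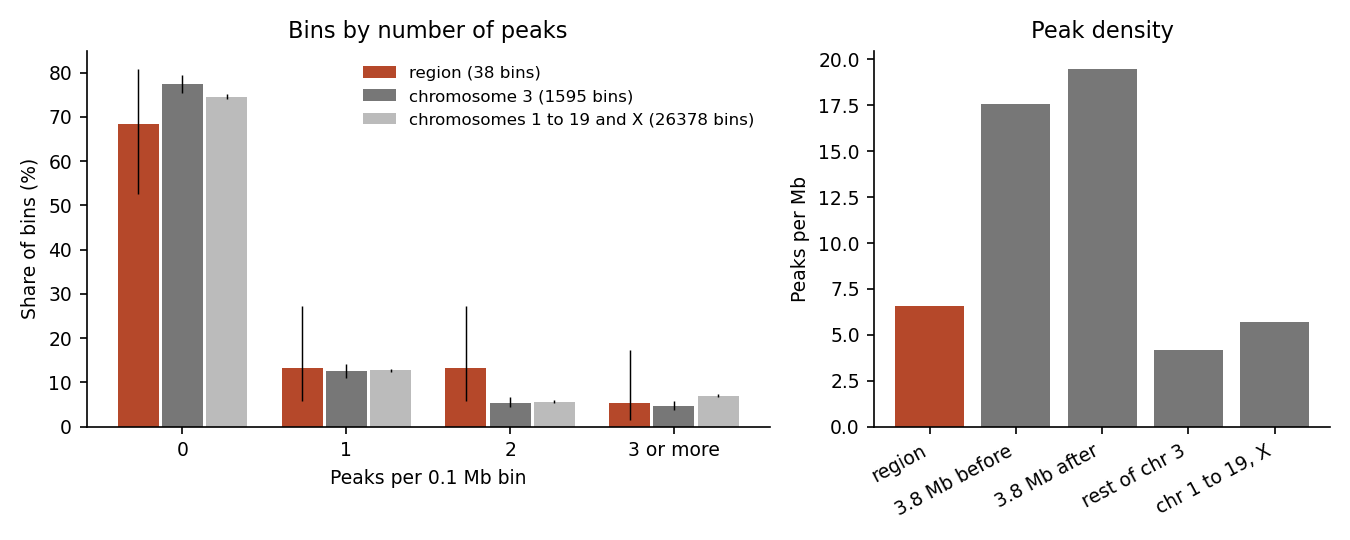
Left, share of 0.1 Mb bins (%) with 0, 1, 2 or at least 3 peaks in the region, on chromosome 3 and on chromosomes 1 to 19 and X, with Wilson 95% intervals as bars. Right, peaks per Mb in the region, in the 3.8 Mb before and after it, on the rest of chromosome 3 and on chromosomes 1 to 19 and X; the region's 6.58 lies below the 17.6 and 19.5 of the sequence beside it.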

How the data were processed

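c-FOS ChIP-seq was done in 2 samples of ASZ001 cells, with 1 input. Per the submitters' processing notes, the authors used Bowtie2 for alignment, mm9 as the genome and MACS2 for the peaks. Not given in the sources used here are their versions, the threshold, the role of the input and how replicates were combined. The deposited values are positions only, a chromosome with a start and an end for every peak. No score, height, p-value or read count was used, so depth and precision per peak are unknown.

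Peaks were taken by midpoint and counted in 0.1 Mb bins and in windows of 0.1 Mb on either side of each stated gene position, with pandas 2.3.3, numpy 2.4.6 and scipy 1.17.1 under Python 3.11.15. Chromosome lengths of mm9 came from GenomeInfoDb 1.38.1, gaps included, and 0 peaks lay beyond them. Gene order and upstream sequences came from RefSeq on GRCm38.p6. Of 66 genes named for the complex, 58 had a sequence. Figures were drawn with matplotlib 3.10.9. Bin counting, merging and the search for close neighbours were tested on simulated lists.

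The members and gene lists were chosen with earlier results of these data known. The text names the 8 genes, each peak, the widest peaks, the fullest bins and the longest empty stretches. Alternatives were merging peaks within 1 kb, leaving out the narrowest peaks, keeping those wider than the median, membership by overlap, and other bins, windows, borders and backgrounds. The 2 groups of 9 peaks were split off at gaps over 0.2 Mb, a cut chosen after the peaks were seen.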

Additional observations from a re-analysis of the deposited data

How the results depend on the processing

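Of 33 alternative values, 31 stayed within 1.5 times the reported value or, for shares and the density ratio, within its Wilson interval. Both exceptions came from keeping peaks wider than the list's median, which removes about as many peaks by construction: it left 14 of the 25 peaks, and 10 of the 18 near the stated gene positions. The window of S100a10 and S100a11 then held 5 peaks, that of S100a6 3, and that of Flg 0. The counts at single gene positions, which are not among the 33, moved with the window: from 0.05 to 0.2 Mb on either side, S100a6 went from 3 to 9 peaks, S100a8 and S100a9 from 1 to 7, Sprr1a from 0 to 2 and Flg from 0 to 3, while Ivl kept a count of 2. The share of bins with a peak was 21.1% among these wider peaks, against 14.5% on chromosome 3. In bins of 0.2 Mb it was 42.1%, against 33.6%. The density ratio to chromosome 3 ranged from 1.55 to 1.77 over the peak filters. Against chromosomes 1 to 19 and X it was 1.16, still within the wide interval of 1.06 to 2.35. Membership by overlap left every reported value unchanged, and the bounds are wide. With only the wider peaks kept, the longest empty stretch grew from 1.32 to 1.97 Mb and still counted as within bounds. For both reasons the 31 values within bounds say little about stability. Neither replicate could be left out of the single list, and a stricter score could not be set. No paired analysis was possible because the list carries no replicate columns.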
